A study of Mus musculus with 9 samples.

Results

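The genes that import, fold, glycosylate and dispose of proteins in the endoplasmic reticulum (ER) were compared between OVA-specific CD8+ T cells of 2 genotypes, WT and Tsc1-/-. The group is a list of 35 genes named by their function. A probe set assigned to a single gene was found for 34 of them among the 17097 genes measured, and Sec61g was not analysed here. Where a gene had several, the probe set brightest on average across the 9 arrays was used. The 4 WT samples came from C57BL/6 mice that carried Tsc1-fl/fl and no cre, and the 5 Tsc1-/- samples from C57BL/6 mice that carried Tsc1-fl/fl together with Granzyme B-cre, in which cre is driven by a gene that CD8+ T cells switch on as they become cytotoxic. All mice had been infected with Listeria monocytogenes, and cells binding OVA, a model antigen, were sorted from the spleen by flow cytometry at day 9. The labels give no age. Cre was present in every Tsc1-/- and in no WT mouse, so loss of Tsc1 and presence of cre cannot be told apart in any result here.

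Proteins bound for the cell surface or for secretion enter the ER through the Sec61 channel, receive N-linked sugars from the oligosaccharyltransferase, and are folded by chaperones and disulfide isomerases, while misfolded chains are pulled back to the cytosol and degraded. When unfolded proteins accumulate, the sensors Ire1 (encoded by Ern1), Atf6 and Perk raise the expression of this machinery in what is called the unfolded protein response. Cytotoxic T cells make large amounts of granule proteins and cytokines by this route, and Tsc1 restrains mTORC1, a kinase that promotes protein synthesis.

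Tsc1 itself read 7.77, 7.61, 7.71 and 7.56 on the log2 scale in WT replicates 1 to 4 and 7.43, 7.27, 7.51, 7.44 and 7.35 in Tsc1-/- replicates 1 to 5. The genotypes did not overlap, with a mean difference of -0.26 (SE 0.08, adjusted p = 0.114, limma). The difference was negative in all 20 alternative settings. Its adjusted p was under 0.05 in 1 of them, with dim genes left out (0.0495, limma). The mean of the Tsc1 probe sets differed by -0.20 (adjusted p = 0.186, limma). Whether the probe set covers the deleted part of the gene was not analysed here. Arrays correlated at 0.982 to 0.991. The defining markers of CD8 T cells were bright in both genotypes, with Cd8a at 12.08 ± 0.04 in the 4 WT samples (mean ± SD) and 12.10 ± 0.06 in the 5 Tsc1-/- samples, and Cd3e at 11.81 ± 0.04 and 11.82 ± 0.02. The mean level of the 10 macrophage and monocyte markers was 6.27 to 7.10 in WT and 6.15 to 6.54 in Tsc1-/-, with 9 of 10 markers negative in the difference, and that of 5 B cell markers 5.74 to 6.59 and 5.42 to 6.15, with all 5 negative. Markers of other cells were brighter and uneven between arrays. The mean of the neutrophil markers S100a8 and S100a9 was 9.13 to 10.55 in WT and 7.13 to 10.79 in Tsc1-/-. The erythroid marker Hba-a1 read 9.98 to 10.77 in WT and 8.73 to 11.82 in Tsc1-/-. In bulk RNA, fewer cells of a type and less RNA per cell cannot be told apart.

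No ER gene passed the threshold of an adjusted p under 0.05 over all genes in either direction (limma), where 1.28% of all genes passed, 0.971% as higher and 0.310% as lower in Tsc1-/-. The differences of the ER genes were mostly positive. Of the 34 genes, 30 had a positive difference, against 48.2% of all genes, and the median difference was 0.20, against -0.01 over all genes. At an unadjusted p under 0.05, 18 of 34 were higher and 0 lower, while 9.83% of all genes were higher and 7.34% lower. Every Tsc1-/- array lay above every WT array in 14 of the 34 (41.2%), where 5.08% of all genes showed this, and in 0 of 34 did every Tsc1-/- array lie below, where 2.88% of all genes did. All 34 genes reached the median level over genes. Among the 8799 genes that did so, 56.8% had a positive difference, 16.7% were higher at an unadjusted p under 0.05 and 9.15% had all Tsc1-/- arrays above. Sdf2l1, Rpn1, Ern1, Manf and Rpn2 had an adjusted p under 0.1, as did 3.09% of all genes as higher ones. The count of 0 depended on the fit. Ern1, Manf, Rpn1, Rpn2 and Sdf2l1 passed with each array centred on its median, these and Pdia6 passed with dim genes left out, and 8 genes passed with trend and robust estimation (limma). Calls over all genes rose in these fits too. Genes called higher numbered 166 of 17097 at first and 381 with median centring. They numbered 543 of 8799 with dim genes left out and 509 of 17097 with trend and robust estimation (limma).

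**Figure D1:**
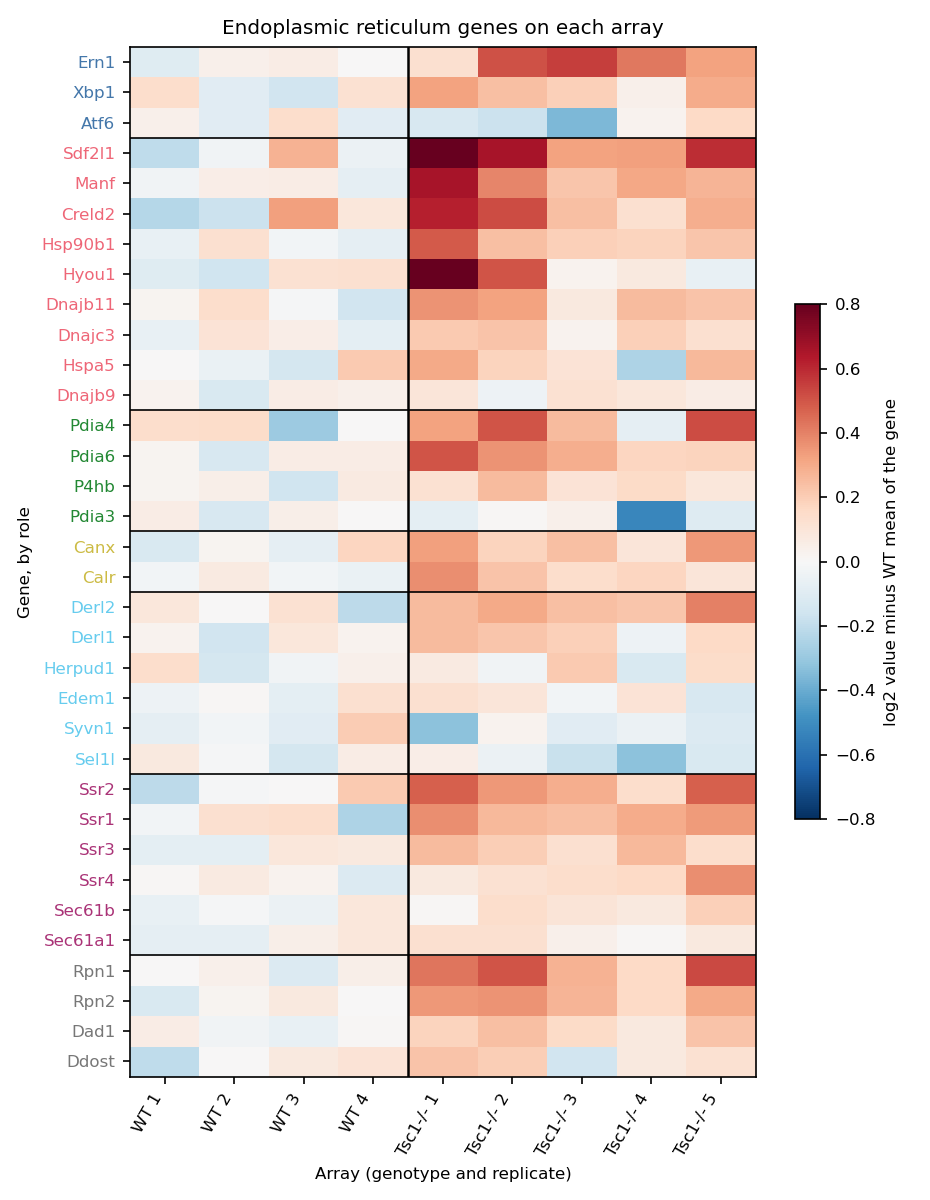
Log2 value of each ER gene on each array minus the gene's WT mean (colour scale from -0.8 to 0.8, values beyond it drawn at its end), with genes in rows by role and arrays in columns, WT left of the vertical line and Tsc1-/- right of it. Most rows are red on all Tsc1-/- arrays, with the deepest colour for Sdf2l1 and Hyou1 on Tsc1-/- replicate 1, while Atf6, Pdia3, Syvn1 and Sel1l are mostly blue or pale.

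The mean level of the 34 genes was 8.95, 8.96, 8.99 and 9.00 in WT replicates 1 to 4 and 9.24, 9.21, 9.11, 9.06 and 9.18 in Tsc1-/- replicates 1 to 5. The WT arrays lay close together and the Tsc1-/- arrays were spread more widely above them. Genes of mitosis were also higher. Their mean level was 7.62, 7.59, 8.16 and 8.26 in WT and 8.74, 8.48, 8.45, 8.54 and 8.57 in Tsc1-/-, and 7 of 18 rose at the threshold (limma), 0.971% of all genes doing so. WT replicates 3 and 4 were the WT arrays nearest to Tsc1-/- in both the ER and the mitosis mean. The WT ER means ran only from 8.95 to 9.00, while the WT mitosis means ran from 7.59 to 8.26. Among the Tsc1-/- arrays the order was not the same in both lists. Replicate 1 was highest in both. Replicate 4 had the lowest ER mean (9.06), but its mitosis mean (8.54) lay above that of replicate 3 (8.45). With the mitosis level of each array as a covariate, a fit chosen after seeing the data, the median ER difference was 0.12 and 23 of 34 genes were positive. The mitosis level did not overlap between the genotypes, so this fit cannot tell a difference by mitosis level from one by genotype. When the covariate was the level of macrophage markers, the median ER difference was 0.19, with 29 of 34 positive. That level overlapped between the genotypes only through WT replicate 4 (6.27), so this fit also separates it poorly from genotype.

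**Figure D2:**
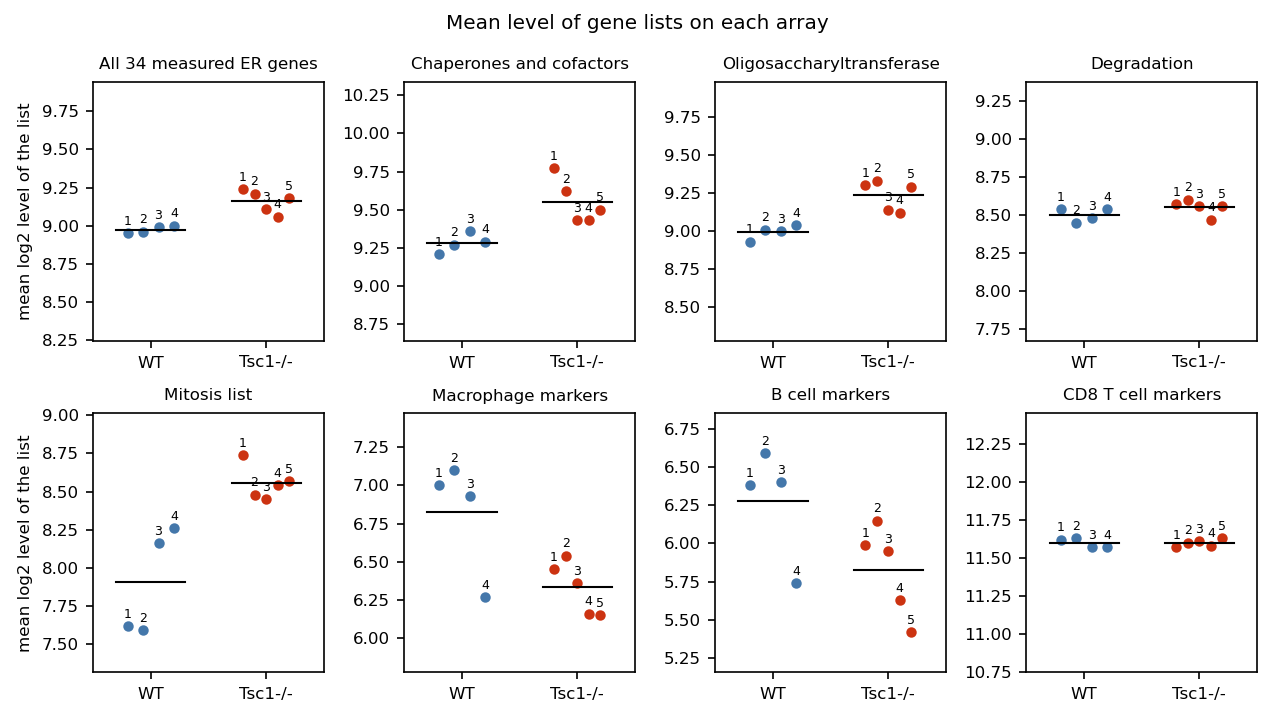
Mean log2 level of 8 gene lists on each array, with 1 point per array labelled by its replicate number, a line at the group mean and the same span on every y axis. The 34 ER genes lay at 8.95 to 9.00 in WT and 9.06 to 9.24 in Tsc1-/-, mitosis genes at 7.59 to 8.26 and 8.45 to 8.74, while CD8 T cell markers covered 11.57 to 11.63 in both.

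Plasma cells, which secrete antibody, also carry much ER. Jchain, the joining chain of secreted antibodies, read 8.49, 7.37, 6.38 and 6.29 in WT and 5.59, 6.46, 4.99, 5.60 and 4.48 in Tsc1-/-, a difference of -1.71 (SE 0.45, adjusted p = 0.0761, limma). It was highest in WT replicate 1 and, among the Tsc1-/- arrays, in replicate 2. Of the 6 plasma cell markers measured, 4 had a positive difference, and their mean level was 6.92 to 7.42 in WT and 6.66 to 6.99 in Tsc1-/-. Txndc5 and Prdm1, the brightest of them, read 9.02 and 7.75 in WT and 9.03 and 7.78 in Tsc1-/-, and both are also known from cells other than plasma cells. With the Jchain level as a covariate, also chosen after seeing the data, the median ER difference was 0.21. Jchain overlapped between the genotypes only through Tsc1-/- replicate 2, so this fit separates its level poorly from genotype.

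Many ER genes are known to share a promoter element, the ER stress response element or ERSE, to which Atf6 binds together with the factor NF-Y. It was searched on both strands as CCAAT, then any 9 bases, then CCACG, in the RefSeq sequence (GRCm38.p6) from 250 bases before to 50 bases after each gene's start. A promoter was found for 29 of the 35 listed genes. Of these 29, 8 (27.6%) held an exact match, against 0.137% of the 27025 genes with a promoter and 3 of 81 other ER genes. Because the element is known from ER genes, this count describes the list and is no independent result. The matching stretches are shown because the element recurs among these promoters, with the match in capitals and 8 flanking bases on each side, on the strand of the gene. In Calr, Creld2 and the second match of Hsp90b1 the element lies on the other strand and reads CGTGG, then any 9 bases, then ATTGG.
Hspa5: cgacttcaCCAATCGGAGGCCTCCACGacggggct
Calr: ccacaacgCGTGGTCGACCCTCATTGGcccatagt
Hsp90b1, first: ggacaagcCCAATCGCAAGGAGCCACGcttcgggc
Hsp90b1, second: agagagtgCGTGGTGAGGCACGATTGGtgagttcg
Canx: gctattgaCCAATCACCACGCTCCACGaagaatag
Pdia6: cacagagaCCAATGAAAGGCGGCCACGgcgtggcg
Dnajc3: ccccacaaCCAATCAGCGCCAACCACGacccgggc
Creld2: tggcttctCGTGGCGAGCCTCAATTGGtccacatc
Syvn1: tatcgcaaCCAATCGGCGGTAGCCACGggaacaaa

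The Hspa5 match lies at chr2:34772025-34772043 on the plus strand and begins 65 bases before the gene's start. The 2 Hsp90b1 matches lie at chr10:86705638-86705656 and chr10:86705533-86705551, on the minus strand gene, and begin 212 and 107 bases before the start. All 9 matches lie before the start of their gene. A shorter form, ERSE-II, searched on both strands as ATTGG, any 1 base and CCACG, matched in 2 of the 29, against 0.0444% of all genes with a promoter and 1 of 81 other ER genes.
Herpud1: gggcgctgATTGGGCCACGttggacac
Dnajb11: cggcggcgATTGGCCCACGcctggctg
The Herpud1 match begins 52 bases before the start and that of Dnajb11 lies just after it. A further motif of the response, the UPRE core TGACGTGG, matched in 0 of 29, in 0.714% of all genes with a promoter and in 8 of 81 other ER genes. ERSE and ERSE-II both end in CCACG, and no stretch above was counted for both.

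The whole 250 bases before the start are shown for Hspa5, the gene of BiP, and for Hsp90b1, the ER gene with 2 matches, with the matches in capitals. They lie at chr2:34771840-34772089 (plus strand) and chr10:86705445-86705694 (minus strand).
Hspa5: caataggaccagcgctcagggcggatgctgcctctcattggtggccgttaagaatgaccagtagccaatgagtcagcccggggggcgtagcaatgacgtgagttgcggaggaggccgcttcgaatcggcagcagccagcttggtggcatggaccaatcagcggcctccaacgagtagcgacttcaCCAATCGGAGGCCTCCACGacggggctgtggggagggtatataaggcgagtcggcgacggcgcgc
Hsp90b1: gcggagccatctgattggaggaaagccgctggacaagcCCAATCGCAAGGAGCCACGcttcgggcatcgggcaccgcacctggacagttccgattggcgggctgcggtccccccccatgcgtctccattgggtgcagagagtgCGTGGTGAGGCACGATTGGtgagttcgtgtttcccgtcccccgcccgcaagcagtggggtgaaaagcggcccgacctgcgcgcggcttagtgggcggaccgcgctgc

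The expression differences were set beside these matches, without a test. The 10 genes with ERSE or ERSE-II had a median difference of 0.22 (from -0.11 to 0.35), and the 18 measured genes with a promoter and neither had one of 0.18 (from -0.13 to 0.55). No promoter was found for Manf, Ssr2, Hyou1, Derl1, Sec61a1 and Atf6, which are in neither set. They differed by 0.37, 0.35, 0.27, 0.15, 0.08 and -0.09. Every Tsc1-/- array lay above every WT array in 3 of the 10 and 10 of the 18. This was so for 5.08% of all genes and 9.15% of those at or above the median level. Sdf2l1, Rpn1 and Ern1, which had the lowest p of the 34 genes, had a promoter and no exact match, and a match is a description of the letters and not evidence of a bound site.

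**Figure D3:**
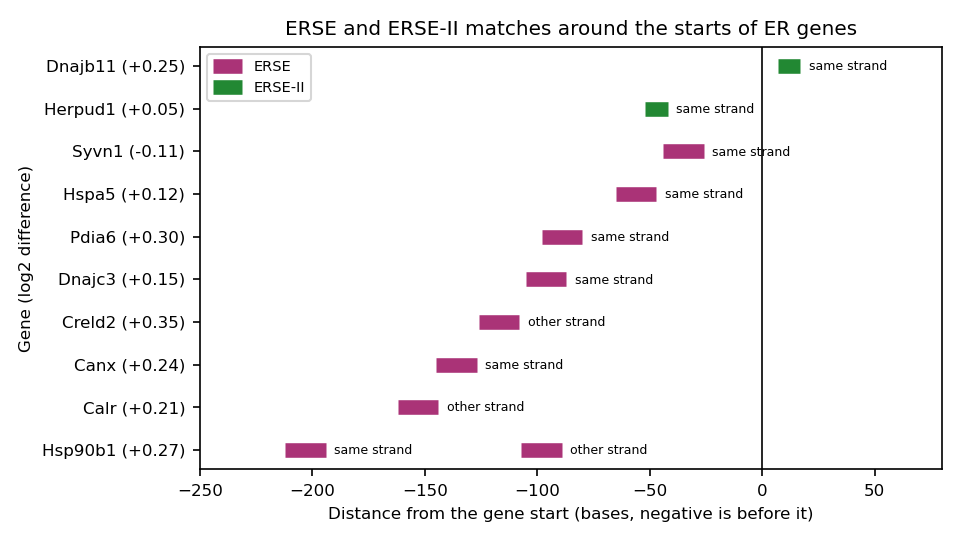
Position of each exact ERSE (purple) and ERSE-II (green) match relative to the gene start, in bases, for the 10 ER genes that hold one, with the strand of the match and the gene's log2 difference Tsc1-/- minus WT beside its name. All ERSE matches lie between 212 and 26 bases before the start, and Syvn1 is the 1 gene of the 10 with a negative difference.

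Of the 3 stress sensors and factors, Ern1 and Xbp1 had positive differences and Atf6 did not. Ern1 encodes Ire1, the sensor whose RNase splices Xbp1 mRNA into its active form. Ern1 read 7.65, 7.79, 7.81 and 7.75 in WT and 7.88, 8.26, 8.30, 8.17 and 8.07 in Tsc1-/-. The genotypes did not overlap, and the mean difference was 0.39 (SE 0.09, 95% interval 0.18 to 0.59, adjusted p = 0.0615, limma), a ratio of 1.31. Its other 4 probe sets also differed in the positive direction, by 0.12 to 0.45. With each array left out in turn, the adjusted p of Ern1 ran from 0.0349 to 0.187 (limma). The lowest came without Tsc1-/- replicate 1, its lowest Tsc1-/- array, whose removal raises the difference by construction, and the highest without WT replicate 1. Xbp1 read 8.62, 8.39, 8.33 and 8.60 in WT and 8.80, 8.72, 8.67, 8.52 and 8.78 in Tsc1-/-, where replicate 4 lay within the WT range, a difference of 0.21 (SE 0.09, adjusted p = 0.257, limma). These probe sets were not examined for whether they separate the spliced from the unspliced form. Atf6, the sensor that is cut in the Golgi to release a transcription factor, differed by -0.09 (95% interval -0.33 to 0.14).

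All 9 Hsp70 and Hsp90 chaperones and their cofactors had a positive difference, with a median of 0.27. Sdf2l1, which works with the ER Hsp70 BiP and its J-proteins, had the largest difference of the 34 genes. It read 7.76, 7.93, 8.24 and 7.91 in WT and 8.83, 8.62, 8.28, 8.29 and 8.55 in Tsc1-/-. The genotypes did not overlap, although Tsc1-/- replicates 3 and 4 lay only just above WT replicate 3, and the mean difference was 0.55 (SE 0.13, 95% interval 0.27 to 0.83, adjusted p = 0.0567, limma), a ratio of 1.47. Manf, a small ER protein that is secreted under stress and binds BiP, read 9.01, 9.09, 9.10 and 8.97 in WT and 9.70, 9.43, 9.26, 9.35 and 9.31 in Tsc1-/-. All Tsc1-/- arrays lay above WT, by 0.37 on average (SE 0.10, adjusted p = 0.0750, limma).

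Other chaperones differed by less. Hspa5, which encodes BiP itself, was 10.67 ± 0.15 (SD, n = 4) for WT and 10.79 ± 0.22 (SD, n = 5) for Tsc1-/-, and its difference of 0.12 (95% interval -0.14 to 0.37, adjusted p = 0.655, limma) was within the spread of the arrays. Hsp90b1, the ER Hsp90, differed by 0.27 (adjusted p = 0.134, limma) with no overlap between the genotypes. Creld2, an ER protein with disulfide isomerase activity, differed by 0.35, Hyou1, the exchange factor of BiP, by 0.27, and the J-proteins Dnajb11, Dnajc3 and Dnajb9 by 0.25, 0.15 and 0.06, all with overlap between the genotypes and adjusted p of 0.162 or higher (limma). Hyou1 varied most among the Tsc1-/- arrays, reading 9.90 and 9.60 in replicates 1 and 2 and 9.13, 9.18 and 9.04 in replicates 3 to 5, against 9.00, 8.94, 9.22 and 9.23 in WT.

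Tsc1-/- replicate 1 was the highest Tsc1-/- array in 7 of these 9 genes and in 17 of all 34, and replicate 4 the lowest in 17 of 34. The chaperone mean was 9.77 in Tsc1-/- replicate 1, 9.62 in replicate 2 and 9.43 to 9.50 in the other 3, against 9.21 to 9.36 in WT. Replicate 1 was also the Tsc1-/- array with the highest mitosis level. Without it the median difference of the chaperone genes was 0.21.

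Of the 4 disulfide isomerases, 3 had a positive difference and none passed the threshold. Pdia6, which also attenuates signalling by the stress sensors, read 8.13, 7.98, 8.17 and 8.17 in WT and 8.61, 8.47, 8.40, 8.28 and 8.29 in Tsc1-/-. These values did not overlap, with a mean difference of 0.30 (SE 0.09, adjusted p = 0.106, limma). Pdia4 read 7.58, 7.59, 7.15 and 7.44 in WT and 7.76, 7.94, 7.69, 7.37 and 7.96 in Tsc1-/-, where replicate 4 fell among the WT arrays, a difference of 0.30 (SE 0.13, adjusted p = 0.263, limma). P4hb, the classical protein disulfide isomerase, differed by 0.15 (adjusted p = 0.357, limma) with no overlap. Pdia3, the isomerase that partners the lectin chaperones, was read by its only single-gene probe set at 6.44 ± 0.09 (SD, n = 4) and 6.31 ± 0.22 (SD, n = 5), a difference of -0.13 (95% interval -0.37 to 0.11).

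Calnexin and calreticulin, the lectin chaperones that hold glycoproteins during folding, both had a positive difference. Canx read 9.09, 9.23, 9.14 and 9.38 in WT and 9.54, 9.39, 9.45, 9.31 and 9.56 in Tsc1-/-, where only replicate 4 fell below the highest WT array, for a difference of 0.24 (SE 0.09, adjusted p = 0.178, limma). Calr read 10.15, 10.24, 10.15 and 10.12 in WT and 10.54, 10.40, 10.31, 10.34 and 10.27 in Tsc1-/-, without overlap, for a difference of 0.21 (SE 0.08, adjusted p = 0.197, limma). Each had a second probe set with a difference in the same direction, of 0.27 for Canx and 0.31 for Calr. The brightest probe sets of both are of types that can also detect related transcripts. So are those of Hyou1, Syvn1 and Ssr4, and those of Sec62 and Selenos among the other ER genes named below.

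Genes of ER-associated degradation showed the smallest median difference of the 7 roles, 0.04, with 4 of 6 positive. The difference between roles was not tested. Derl2, a derlin of the channel through which misfolded proteins leave, read 8.78, 8.69, 8.81 and 8.48 in WT and 8.94, 8.99, 8.93, 8.91 and 9.09 in Tsc1-/-. It was the 1 gene of this role without overlap, with a difference of 0.28 (SE 0.09, adjusted p = 0.117, limma), while a second, dimmer probe set differed by 0.02. Derl1 read 8.49, 8.31, 8.55 and 8.49 in WT and 8.71, 8.68, 8.65, 8.42 and 8.62 in Tsc1-/-, with replicate 4 within the WT range and a difference of 0.15 (SE 0.09, adjusted p = 0.380, limma). The ubiquitin ligase Syvn1 (Hrd1) and its partner Sel1l differed by -0.11 (95% interval -0.32 to 0.09) and -0.12 (95% interval -0.32 to 0.07). Herpud1, which organises that ligase complex, differed by 0.05 (95% interval -0.14 to 0.25), and Edem1, a mannosidase-like protein that marks glycoproteins for degradation, by 0.03 (95% interval -0.15 to 0.21). The second probe sets of Herpud1 and Edem1 differed by 0.11 and 0.01. That of Syvn1 differed by -0.20, while further probe sets of Sel1l differed by 0.11, 0.16, 0.00 and -0.01.

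**Figure D4:**
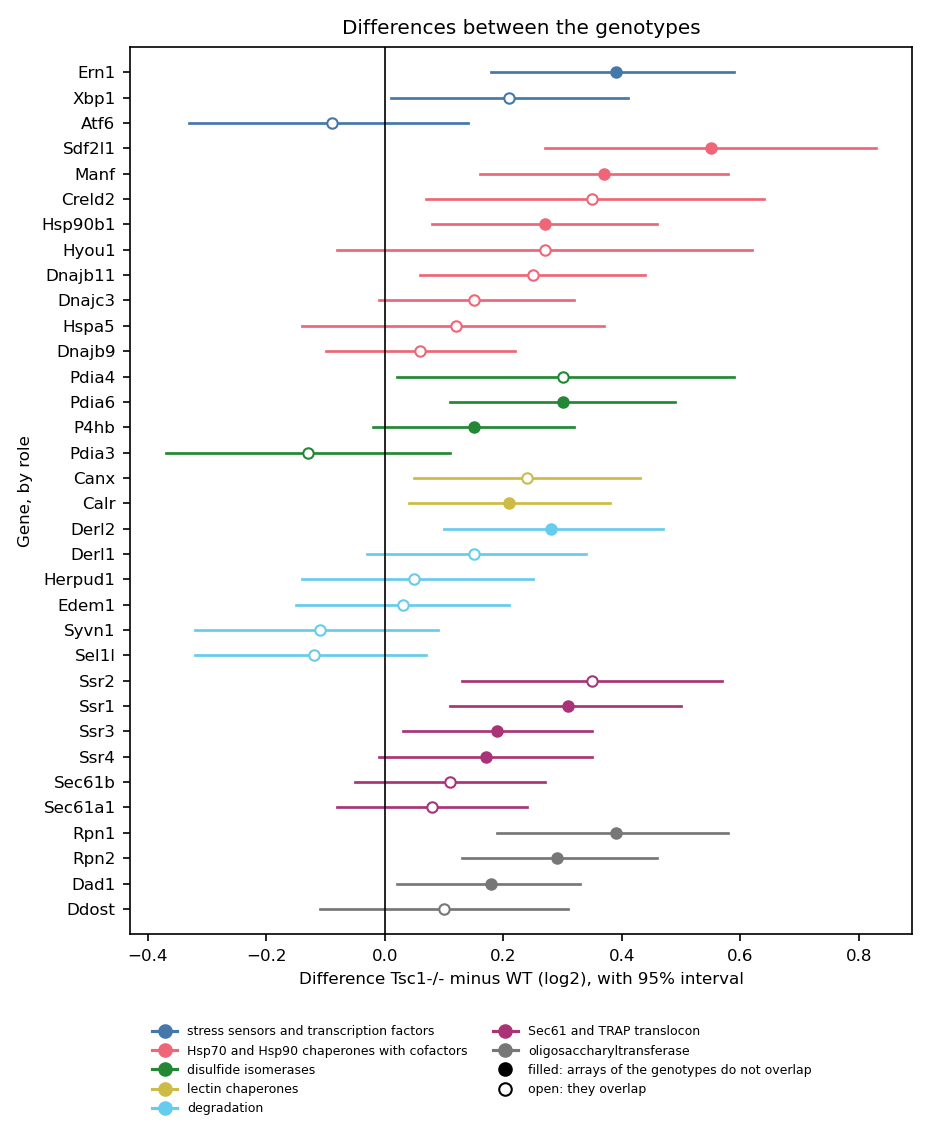
Difference Tsc1-/- minus WT on the log2 scale for each of the 34 ER genes, grouped by role, with limma's 95% interval; filled points mark the 14 genes in which every Tsc1-/- array lay above every WT array. Most points lie between 0.1 and 0.4, Sdf2l1 is farthest right at 0.55, and Atf6, Pdia3, Syvn1 and Sel1l lie left of 0.

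At the site of import, all 6 measured genes of the Sec61 channel and the TRAP complex were positive, with a median of 0.18. By the brightest probe set of each gene, the 4 genes of TRAP, the complex that helps nascent chains enter Sec61, had the larger differences. Ssr2 read 8.73, 8.93, 8.94 and 9.15 in WT and 9.42, 9.29, 9.23, 9.08 and 9.42 in Tsc1-/-, where replicate 4 lay below WT replicate 4, for a difference of 0.35 (SE 0.10, adjusted p = 0.104, limma). Ssr1 read 9.55, 9.70, 9.71 and 9.32 in WT and 9.94, 9.83, 9.81, 9.87 and 9.91 in Tsc1-/-, without overlap, for a difference of 0.31 (SE 0.09, adjusted p = 0.107, limma). Ssr3 and Ssr4 differed by 0.19 and 0.17, again without overlap (adjusted p = 0.222 and 0.311, limma), although 2 dimmer probe sets of Ssr4 differed by -0.11 and -0.01. The channel genes Sec61a1 and Sec61b differed by 0.08 (95% interval -0.08 to 0.24) and 0.11 (95% interval -0.05 to 0.27). Sec61a1, which forms the pore, was very bright at 11.49 and 11.57, and its 3 dimmer probe sets differed by 0.21, 0.26 and 0.35. With the mean of probe sets the order of the genes changed. Ssr2, Ssr1, Ssr3 and Ssr4 then differed by 0.35, 0.27, 0.19 and 0.02, and Sec61a1 and Sec61b by 0.22 and 0.11.

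In the oligosaccharyltransferase, which transfers the N-linked sugar to the entering chain, all 4 genes were positive and 3 did not overlap between the genotypes. Of all genes, 5.08% had every Tsc1-/- array above every WT array, and of those at or above the median level 9.15%. Rpn1, ribophorin I, read 8.64, 8.68, 8.53 and 8.69 in WT and 9.07, 9.14, 8.92, 8.80 and 9.17 in Tsc1-/-. The lowest Tsc1-/- array lay above the highest WT array, and the mean difference was 0.39 (SE 0.09, 95% interval 0.19 to 0.58, adjusted p = 0.0590, limma), a ratio of 1.31. A second Rpn1 probe set also differed by 0.39. Rpn2, ribophorin II, read 8.32, 8.46, 8.52 and 8.44 in WT and 8.79, 8.80, 8.71, 8.60 and 8.74 in Tsc1-/-, without overlap, for a difference of 0.29 (SE 0.08, adjusted p = 0.0769, limma). Dad1, a small subunit named for its defence against apoptotic death, differed by 0.18 with no overlap (adjusted p = 0.224, limma) and Ddost by 0.10 (95% interval -0.11 to 0.31).

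The direction held over most probe sets of these genes. Of 73 single-gene probe sets for the 34 genes, 64 had a positive difference. Of the 21 genes with several, all probe sets were positive in 17 and all negative in 2, Atf6 and Syvn1, while Ssr4 and Sel1l were mixed.

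A wider list of 98 other ER genes, of which 91 were measured, was read in the same fit. Of these, 3 rose and 0 fell at the threshold (limma), where 0.971% of all genes rose and 0.310% fell. A positive difference was found in 65 of 91, against 48.2% of all genes and 56.8% of those at or above the median level, and the median was 0.09. At an unadjusted p under 0.05, 26 were higher and 0 lower, where 9.83% of all genes and 16.7% of those at or above the median level were higher. Gpx8, an ER peroxidase, read 5.97, 6.61, 7.04 and 5.83 in WT and 7.36, 8.41, 7.89, 7.61 and 7.92 in Tsc1-/-, a difference of 1.47 (SE 0.25, adjusted p = 0.0314, limma). Fkbp2, a prolyl isomerase of the ER lumen, read 8.89, 9.09, 9.38 and 9.23 in WT and 9.88, 9.60, 9.59, 9.66 and 9.50 in Tsc1-/-, a difference of 0.50 (SE 0.11, adjusted p = 0.0485, limma). Sar1b, the GTPase that starts the COPII coat of vesicles leaving the ER, read 8.61, 8.77, 8.80 and 8.87 in WT and 9.22, 9.11, 9.02, 9.20 and 9.26 in Tsc1-/-, a difference of 0.40 (SE 0.08, adjusted p = 0.0415, limma). None of the 3 overlapped between the genotypes, which is likely for genes named because they passed the threshold. Every Tsc1-/- array lay above every WT array in 18 of the 91. This was so for 5.08% of all genes and 9.15% of those at or above the median level. The count of 3 depended on single arrays. It was 0 without WT replicate 1, WT replicate 2 or Tsc1-/- replicate 2, 3, 4 or 5, 1 without WT replicate 3, 2 without Tsc1-/- replicate 1 and 5 without WT replicate 4.

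By role, the 13 genes of targeting, translocation and signal cleavage were all positive, with a median of 0.18, and Sec62, an auxiliary of the Sec61 channel, had the lowest p (0.61, SE 0.17, adjusted p = 0.0977, limma). The mean of the Sec62 probe sets differed by 0.14 (adjusted p = 0.452, limma). Without Tsc1-/- replicate 1, its lowest Tsc1-/- array at 7.10, Sec62 differed by 0.74 (adjusted p = 0.0434, limma), a removal that raises the difference by construction. With any other array left out, the adjusted p of Sec62 was 0.106 to 0.253 (limma). Of 13 further N-glycosylation genes 11 were positive (median 0.16), led by the oligosaccharyltransferase subunit Ostc (0.32, adjusted p = 0.108, limma), and of 16 genes of exit and retrieval 12 (median 0.13). The 21 further folding and oxidation genes had 14 positive (median 0.07). Further degradation genes had 8 of 14 positive (median 0.01), with Selenos, a membrane selenoprotein of that pathway, the lowest in p (0.32, adjusted p = 0.0590, limma). The 14 genes of stress signalling were split, with 7 positive and 7 negative and a median of 0.00, and Eif2ak3, which encodes Perk, had the lowest p among them (0.34, 95% interval 0.04 to 0.64, adjusted p = 0.224, limma). Without WT replicate 2, its lowest array at 6.12, the Eif2ak3 difference was 0.18.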

How the data were processed

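Total RNA (12 ng per sample) was amplified and labelled with NuGEN kits, per the labels' protocols. The deposited log2 values per probe set were made by the authors with RMA, per the submitters' processing notes, which list Partek 6.5 too. RMA forces a common distribution on the arrays, which would hide a shift of most transcripts in one direction. Array medians were 5.97 to 6.05. Its options are not given here.

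Of 45037 probe sets, 28898 had 1 gene in the platform annotation, 551 several and 15588 none here. Symbols were updated by Entrez identifier (28689 matched) through the RefSeq table of GRCm38.p6, which also gave the promoters. The 17097 genes were fitted with lmFit and eBayes of limma 3.58.1 (R 4.3.3), genotype as the only term, two-sided, Benjamini-Hochberg adjusted over all genes. Differences are Tsc1-/- minus WT in log2. The fit was tested on simulated data with independent noise for each gene and changes larger than the median ER difference. It therefore does not show how well differences of that size are found. Figures were drawn in Python 3.11.15.

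The genes and lists were chosen with earlier results of these data known, so lists are described by counts and medians with no test. Values on every array are given for each ER gene past the threshold and the 2 genes of each role with the smallest p. From each group of other ER genes up to 3 past the threshold are named, or else the 1 with the smallest p, and from marker lists the 2 brightest, of which some are not shown. The labels do not say whether samples came from separate animals, so p-values measure the spread between samples; precision is limited by having 9 arrays. Alternatives were the mean of probe sets, dim genes left out (below 6.34), quantile normalization, median centring, weighting of arrays, a robust fit with a variance trend, the replicate block, an adjusted p under 0.1, marker levels as covariates and each array left out.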

Additional observations from a re-analysis of the deposited data

Results flagged for a closer look

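In 84 groups of 4 or 5 arrays, 4 had 1 array far from the others (Dixon's test), where chance gives about 1 in 20. Hsp90b1 read 11.03 in Tsc1-/- replicate 1 and 10.72 to 10.78 in the other Tsc1-/- arrays. Dnajb9 read 9.29 in WT replicate 2 and 9.44 to 9.47 in the other WT arrays. Pdia3 read 5.92 in Tsc1-/- replicate 4 and 6.34 to 6.48 in the others of its genotype. Ssr4 read 9.47 in Tsc1-/- replicate 5 and 9.18 to 9.26 in the others.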

How the results depend on the processing

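Over 20 alternative settings, 26 of the 34 ER genes kept their direction, the median difference was 0.12 to 0.24, and 0 were called lower. The count called higher, 0 at first, was 1 with the mean of probe sets (Rpn1), 6 with dim genes left out, 5 with median centring, 8 with trend and robust estimation, 2 with array weights, 5 at an adjusted p under 0.1, and 0 to 1 with each array left out. The cause was not tested. Other ER genes called higher, 3 at first, numbered 9 at an adjusted p under 0.1, 8 with dim genes left out, 1 with quantile normalization, 7 with median centring, 12 with trend and robust estimation, 5 with array weights and 0 to 5 with each array left out. Genes called higher and lower over all genes, 166 and 53 at first, numbered 529 and 209 at an adjusted p under 0.1, 543 and 151 with dim genes left out, 58 and 32 with quantile normalization, 381 and 57 with median centring, 509 and 171 with trend and robust estimation, 340 and 125 with array weights, and 1 to 297 and 1 to 159 with each array left out. With the replicate block, and with the macrophage, plasma cell, mitosis or Jchain level as a covariate, 0 genes of any of these lists were called (limma). An unadjusted p under 0.05, in either direction, was found for 13 of 34 ER genes and 2354 of 17097 genes with the block, 11 and 1693 with the macrophage, 14 and 1765 with the plasma cell, 6 and 1283 with the mitosis and 11 and 1256 with the Jchain covariate, against 18 and 2936 at first. Arrays with the same replicate number correlated at -0.10 to 0.09 in their deviations, so the numbers were not taken to pair samples. With the mitosis covariate the median ER difference was 0.12, and reversed values were -0.03 for Hspa5, -0.13 for Hyou1, -0.04 for Dnajb9, -0.08 for Creld2, -0.04 for Edem1, -0.07 for Sec61a1, -0.14 for Ddost and -0.05 for Eif2ak3. Edem1 was also -0.02 with quantile normalization and -0.0057 with the macrophage covariate, and Sel1l was 0.03 with the mean of probe sets. The mitosis and Jchain covariates were chosen after seeing the data. Because the mitosis level did not overlap between the genotypes, the values with that covariate cannot tell mitosis level and genotype apart. The macrophage level overlapped only through WT replicate 4, and the plasma cell and Jchain levels only through Tsc1-/- replicate 2. Fits with these covariates separate level and genotype poorly.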
